A study of Mus musculus with 4 samples.

Results

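The 9 miRNAs described here are both arms of 4 precursors, miR-338, miR-340, miR-423 and miR-532, and miR-374, out of 611 mouse miRNAs on the array. They were taken by their names in the scanner output: mmu-miR-338-5p, mmu-miR-338-3p, mmu-miR-340-5p, mmu-miR-340-3p, mmu-miR-423-5p, mmu-miR-423-3p, mmu-miR-532-5p, mmu-miR-532-3p and mmu-miR-374. Of these, miR-338-5p, miR-340-3p, miR-423-5p, miR-532-5p and miR-374 were chosen by their ratio of mutant to WT in the deposited log2 table, which passed 2-fold at both times. They are called the listed miRNAs here, and the other 4 arms are the partners cut from the same hairpins. Liver RNA of male mice was measured on 4 one-colour Agilent arrays, 1 for each genotype (WT or *Clock* mutant) at each of ZT2 and ZT14. ZT is the time in hours after lights on. The mutant mice carried the ClockΔ19 allele, and the strain background of both genotypes was not given in the sources used here. All mice were 6 to 8 weeks old and were kept for 2 weeks in a cycle of 12 h light and 12 h dark. RNA of 3 mice was pooled for each array, so there was 1 measurement per condition. Differences between mutant and WT chose the members and are given as a description, with no test.

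CLOCK is a core transcription factor of the circadian clock, and in the liver it drives many genes with a daily rhythm. The Δ19 allele makes a CLOCK protein that still binds its partner but activates transcription poorly. A miRNA precursor is a hairpin from which Dicer cuts a duplex with a 5p and a 3p strand. Usually the strand that is loaded into an Argonaute protein is kept and the other is degraded. Both arms come from the same transcript, so a change in transcription alone reaches both, whereas strand selection and decay can differ between them. The seed, bases 2 to 8, is the stretch that mainly pairs with target mRNAs, so the arms of a hairpin usually have different targets.

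The mature sequences are shown because the arms of miR-338, miR-340 and miR-423 carry different seeds. They are from RefSeq (GRCm38.p6), in which 8 of the 9 members had an entry. The seed is in capitals, and all are written 5′ to 3′.
miR-338-5p: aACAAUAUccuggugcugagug
miR-338-3p: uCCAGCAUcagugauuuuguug
miR-340-5p: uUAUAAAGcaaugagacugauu
miR-340-3p: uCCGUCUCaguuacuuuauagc
miR-423-5p: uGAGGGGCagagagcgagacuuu
miR-423-3p: aGCUCGGUcugaggccccucagu
miR-532-3p: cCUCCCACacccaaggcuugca
miR-374: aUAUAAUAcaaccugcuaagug

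The name miR-374 was matched through a synonym of the gene Mir374b, and its unstarred form was taken as the 5p arm. No seed was shared between these 8 sequences, and among the 162 array miRNAs that matched RefSeq by name none shared a seed with a member. On chromosome 11, miR-338-5p lies at chr11:120014816-120014837 and miR-338-3p at chr11:120014781-120014802, both on the minus strand within the span of Aatk. The arms of miR-340 lie on the plus strand at chr11:50069720-50069741 (5p) and chr11:50069762-50069783 (3p), within Rnf130. The arms of miR-423 lie on the minus strand at chr11:77078122-77078144 (5p) and chr11:77078086-77078108 (3p), within Nsrp1. miR-532-3p lies on the minus strand at chrX:7248419-7248440 within Clcn5, and miR-374 on the minus strand at chrX:103573112-103573133 within the lncRNA gene Ftx. The GC content of the 8 sequences ran from 27.3% (miR-340-5p) to 65.2% (miR-423-3p), against a median of 52.2% over 1738 mature mouse entries. The sequences with the highest GC content, miR-423-3p and miR-532-3p (63.6%), are also the members that were detected on no array. The starred partner of miR-374, not a member, had 40.9% and was detected on no array either. A link between GC content and detection was not tested.

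The labelled tissue was borne out by miR-122, the hepatocyte miRNA, whose mean signal at ZT2 was 52215 units (WT) and 55936 units (mutant), and at ZT14 29413 units (WT) and 52644 units (mutant). The WT array at ZT14 was dimmer as a whole. The 75th percentile of the 123 mouse miRNAs detected on all 4 arrays was 339.9 units there and 503 to 537 units on the other 3 arrays, and signals were divided by it. Between 138 and 193 mouse miRNAs were called detected per array. Muscle miRNAs (3 of 4) were detected in WT liver at ZT2 and on no other array, with a summed signal of 167 units against 1.49 to 5.57 units on the other arrays. Leukocyte miRNAs were detected for 3 of 5 there and 2 of 5 on the others, and the summed signal of 3 red blood cell miRNAs ran from 1006 to 2989 units. The part of any of these in the values below was not tested. In pooled tissue RNA, fewer cells of a type and less of a miRNA per cell cannot be told apart.

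The members were dim. Each was measured by 20 spots over 2 to 4 probes, and values are means over spots, then probes, in intensity units after background subtraction. Errors are the SD between repeated spots of a probe. This spread is technical, within 1 array, and says nothing of the spread between mice. Negative control spots averaged 6.60 units (WT, ZT2), 5.65 units (mutant, ZT2), 9.53 units (WT, ZT14) and 9.27 units (mutant, ZT14). A miRNA was called detected where a probe's total signal was over 3 times its error. By this call, 7, 6, 2 and 7 of the 9 members were detected on these arrays in the same order.

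For miR-338, encoded within Aatk, a kinase gene, the 3p arm was detected on every array. Its signal at ZT2 was 25.6 ± 3.18 units (WT) and 21.7 ± 4.45 units (mutant), and at ZT14 12.7 ± 4.37 units (WT) and 21.7 ± 3.66 units (mutant), as mean ± SD of 20 spots. WT at ZT14 was the lowest, and the other 3 arrays lay between 21.7 and 25.6 units. The listed 5p arm gave 2.98 ± 3.71 units (WT) and 2.42 ± 2.18 units (mutant) at ZT2, and 0.575 ± 3.02 units (WT) and 1.99 ± 3.03 units (mutant) at ZT14. It was called detected on 3 arrays and not in WT at ZT14. On all 4 arrays its mean over probes was under that of the negative control spots. Of its 4 probes 1 was called detected on those 3 arrays, with 15.8, 19.7, 9.28 and 17.1 units on the 4 arrays in that order, and on the 3 arrays where it was detected miR-338-5p was the dimmest of all miRNAs called detected.

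For miR-340, within the ubiquitin ligase gene Rnf130, the 5p arm was detected on every array and by both of its probes. It gave 32.5 ± 3.27 units in WT (n = 19 spots) and 32.3 ± 3.18 in the mutant (n = 20) at ZT2. At ZT14 it gave 16.7 ± 4.47 in WT (n = 18) and 26.5 ± 3.58 in the mutant (n = 20). The arrays at ZT2 overlapped, and WT at ZT14 was again the lowest. The listed 3p arm gave 8.91 ± 3.05 (WT) and 10.4 ± 4.02 (mutant) at ZT2, and 4.63 ± 2.64 (WT) and 12.1 ± 4.59 (mutant) at ZT14 (n = 20 spots). It was not detected in WT at ZT14, and no spot of it was well above background on any array.

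For miR-423, within the splicing factor gene Nsrp1, only the listed 5p arm was detected. It gave 13.5 ± 3.61 units in WT (n = 20 spots) and 14.6 ± 3.94 in the mutant (n = 19) at ZT2. At ZT14 it gave 8.98 ± 2.42 in WT, where it was not detected, and 13.0 ± 3.66 in the mutant (n = 18 each). The 3p arm lay between -2.28 and -1.14 units and was detected on no array. For miR-532, within the chloride transporter gene Clcn5, the listed 5p arm was detected in WT at ZT2 (12.1 ± 1.69 units, n = 20) and in the mutant at ZT14 (11.4 ± 3.55, n = 20). It was not detected in the mutant at ZT2 (8.40 ± 2.87, n = 19) or in WT at ZT14 (6.07 ± 2.44, n = 20). The 3p arm lay between -7.05 and -5.89 units and was detected on no array. Values below 0 have no log, and no ratio was formed from them.

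miR-374, within Ftx, a noncoding gene of the X inactivation centre, gave 13.6 ± 2.28 units (WT) and 14.2 ± 3.16 units (mutant) at ZT2. At ZT14 it gave 6.63 ± 1.93 in WT and 11.5 ± 3.35 in the mutant (n = 20 spots). It was detected on 3 arrays and not in WT at ZT14. Its starred partner was detected on no array. All 5 listed miRNAs were thus undetected in WT at ZT14, the array with the lowest 75th percentile.

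**Figure D1:**
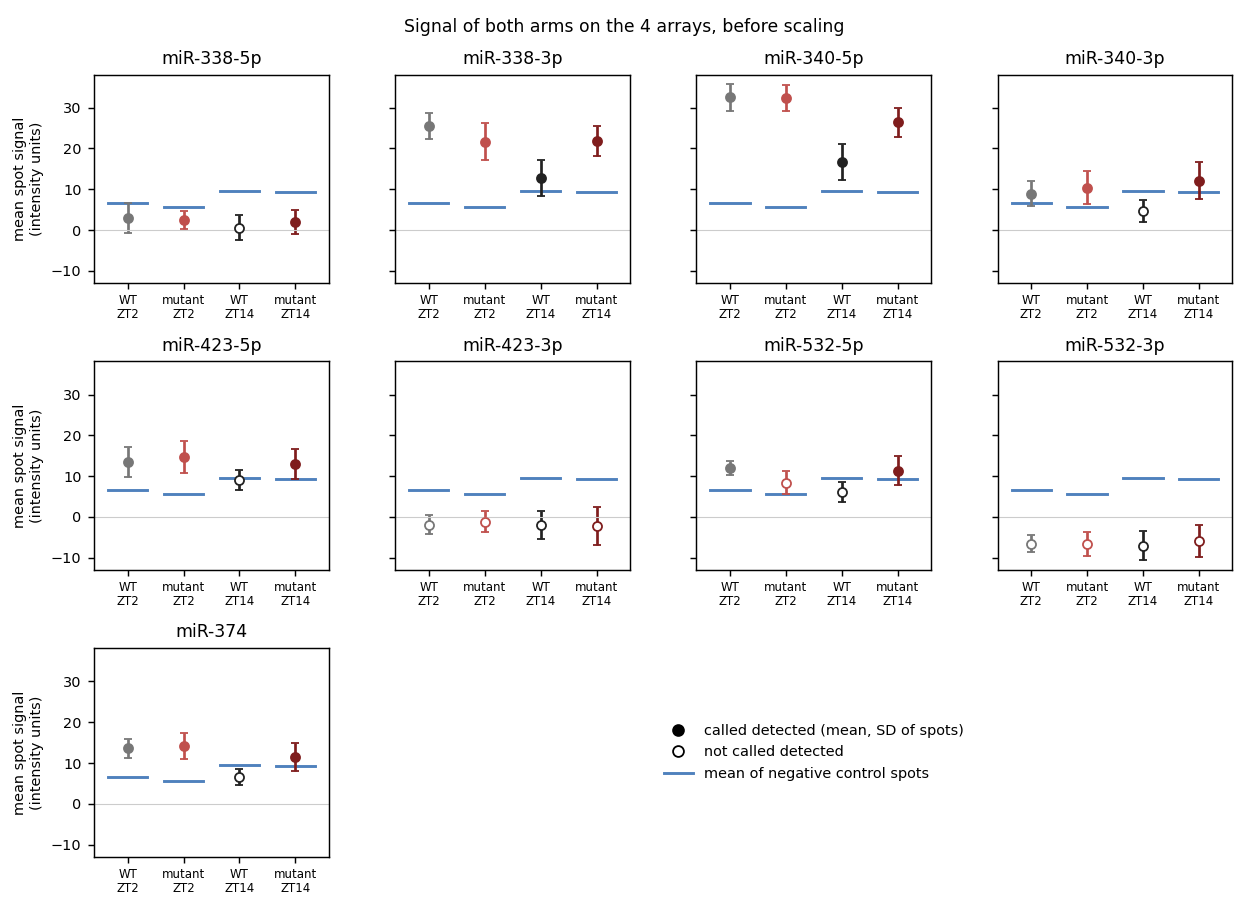
Mean spot signal (intensity units, before scaling) of the 9 miRNAs on each of the 4 arrays, with bars for the SD of spots, filled points for detected and open points for not detected, and blue lines for the mean negative control signal. miR-338-3p and miR-340-5p are filled on every array, and every other member is open in WT at ZT14.

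After scaling, no 2-fold difference between mutant and WT was established for any member. At ZT14 only 2 members gave a ratio, and the others had at most a bound, so that their fold is not known. At ZT2, 0 of 9 members were at least 2-fold higher, against 0% of the 194 mouse miRNAs detected on either array, and 0 were at least 2-fold lower, against 8.25%. At ZT14, 0 were higher against 0% of 157 miRNAs, and 0 were lower against 13.4%. These shares also count values against a floor, where 1 array did not detect the miRNA. Of the 9 members, 2 were detected on no array and could not be counted either way. At ZT2 the log2 ratio of mutant to WT was -0.15 ± 0.35 for miR-338-3p, -0.21 ± 2.22 for miR-338-5p, 0.08 ± 0.20 for miR-340-5p and 0.31 ± 0.75 for miR-340-3p (SD of spots of both arrays). It was 0.21 ± 0.55 for miR-423-5p and 0.15 ± 0.40 for miR-374. All 6 were smaller than their spot SD, which is that of single spots. The SE over spots, also technical, was 0.08, 0.50, 0.05, 0.17, 0.12 and 0.09 in the same order, and only miR-338-5p lay within it. On its only detected probe miR-338-3p had -0.35 ± 0.17, past its spot SD. The others were within theirs on the brightest probe. Scaling decided some signs: by the percentile over all mouse miRNAs miR-338-3p had 0.16 and miR-338-5p 0.10, and without scaling miR-340-5p had -0.01. Of the 160 miRNAs detected on both arrays, 52.5% exceeded their spot SD. Their median spot SD was 0.15, under that of each of the 6, so this share is no like comparison. The median of the 6 was 0.12, beside -0.07 over the 160. For miR-532-5p, detected in WT alone, the log2 ratio to the mutant's own signal, which was not called detected, was -0.43. By the percentile over all mouse miRNAs it was -0.12, and on its only detected probe -0.55 ± 0.31, past the spot SD. Since the mutant's signal was not called detected, no fold is given.

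At ZT14 ratios could be formed for 2 members, 0.11 ± 0.55 for miR-338-3p and 0.01 ± 0.43 for miR-340-5p, both within the spot SD. Beside them, 60.2% of the 123 miRNAs detected on both arrays exceeded theirs. The median spot SD of the 123 was 0.14, under that of both members, so this share is no like comparison. The 5 listed miRNAs were detected in the mutant alone, and WT was set to the brighter of the lowest detected signal and their own signal. For miR-340-3p, miR-532-5p and miR-374 this floor was their own WT signal, with log2 ratios of 0.73, 0.25 and 0.14. These are ratios of the 2 signals and not least folds. The log2 spot SD of miR-340-3p was 0.55 in the mutant and 0.82 in WT. On the only probe that detected miR-532-5p, and on that of miR-374, the log2 ratio was smaller, 0.17 ± 0.36 and 0.04 ± 0.30. On that of miR-340-3p the 2 signals gave 0.73 ± 0.57, past the spot SD, with the WT signal not called detected. No fold is given for these miRNAs. miR-338-5p and miR-423-5p had no value, because their scaled mutant signals, 0.00372 and 0.02425, lay under the floor. For miR-423-5p the floor was its own scaled WT signal, 0.0264, and for miR-338-5p the lowest detected signal, 0.00887. Values were kept only where the mutant lay above the floor, so the sign of 0.73, 0.25 and 0.14 was fixed in advance. With the negative control mean as the floor, miR-340-3p, miR-532-5p and miR-374 had no value either. Before scaling, the log2 ratios of miR-338-3p and miR-340-5p were 0.77 and 0.67, beside a median of 0.63 over all 123 miRNAs.

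**Figure D2:**
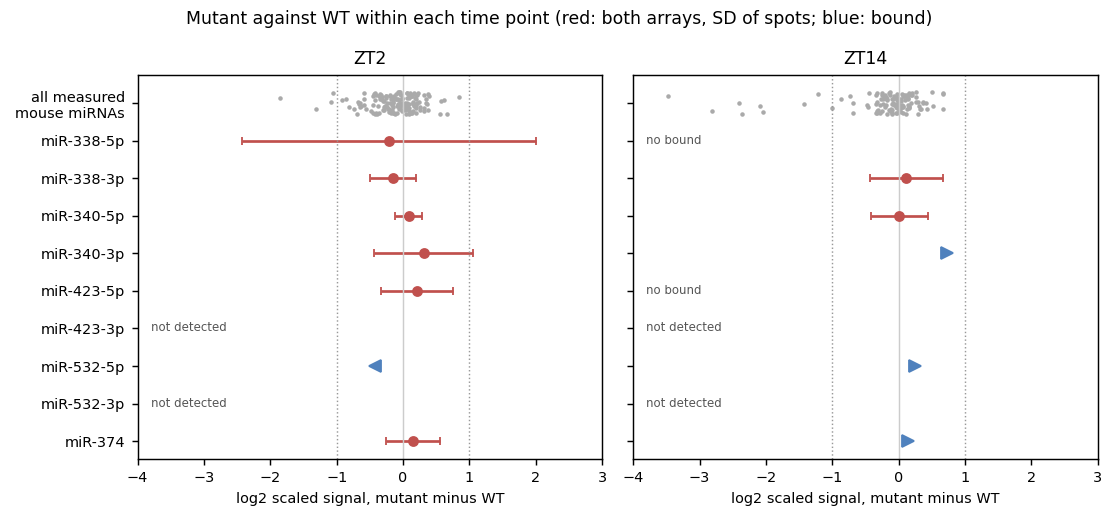
Log2 ratio of scaled signal, mutant minus WT, at ZT2 and ZT14. Red points are members detected on both arrays with the SD of spots, blue triangles are values against the floor for an undetected array (at ZT14 all 3 are lost with the negative control mean as the floor), and grey points are all mouse miRNAs detected on both arrays. No red point reaches the dotted 2-fold lines.

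The question of whether both arms of a hairpin moved together could be asked where both were detected on both arrays, since any number that divides a whole array drops out of the difference between arms. At ZT2 this held for miR-338 and miR-340, and at ZT14 for none of the 4 precursors. The change of the 5p arm minus that of the 3p arm was -0.23 ± 0.77 for miR-340 on the log2 scale, within the spot SD. For miR-338 it was -0.07 ± 2.25, and since the 5p mean was under the negative controls on both arrays this value does not say whether the arms moved together. Its sign also turned with the probe used. On the brightest probe of each arm, 5p changed by 0.26 ± 0.31 and 3p by -0.35 ± 0.17, a difference of 0.61, larger than either SD. On the same basis the difference for miR-340 was -0.47, from -0.16 ± 0.23 for 5p and 0.31 ± 0.43 for 3p. In the mutant, where both arms of both hairpins were detected at both times, the ZT14 to ZT2 change of 5p minus that of 3p was -0.28 ± 2.58 for miR-338 and -0.51 ± 0.82 for miR-340.

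Of 168 precursors with both arms on the array, 20 had both arms detected on some array, 65 had 1 arm and 83 had neither. The 4 hairpins here split into 2 with both arms detected and 2 with 1. Apart from them, 14 precursors had both arms detected on both arrays at ZT2, the same condition that miR-338 and miR-340 met. The median size of their arm difference was 0.07, with 1 past its spot SD and past 2-fold. That was miR-139, 1.08 ± 1.06, named after its value was seen. Of these 14, 8 had both arms on all 4 arrays, with a median size of 0.06 at ZT2, none past the spot SD, and of 0.18 at ZT14, 4 past it. The largest of the 8 at either time was let-7b over its starred arm, 0.32 ± 0.51 at ZT2 and 0.77 ± 0.50 at ZT14. Next in size were miR-126 (-0.11 ± 0.19) and miR-30e (0.08 ± 0.24) at ZT2. At ZT14 they were miR-30e (-0.45 ± 0.23) and miR-30a (-0.28 ± 0.18), both past the spot SD. The smallest at ZT2 were miR-378 and miR-22, each 0.01 in size, and miR-199a at 0.03. The smallest at ZT14 were miR-140 (-0.02 ± 0.20), miR-199a (-0.04 ± 0.29) and miR-22 (-0.13 ± 0.18). The size of the difference of miR-340 lay within the range of the 14, where only let-7b and miR-139 were larger. Its spot SD of 0.77 was also above the median spot SD of the 14, 0.32.

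**Figure D3:**
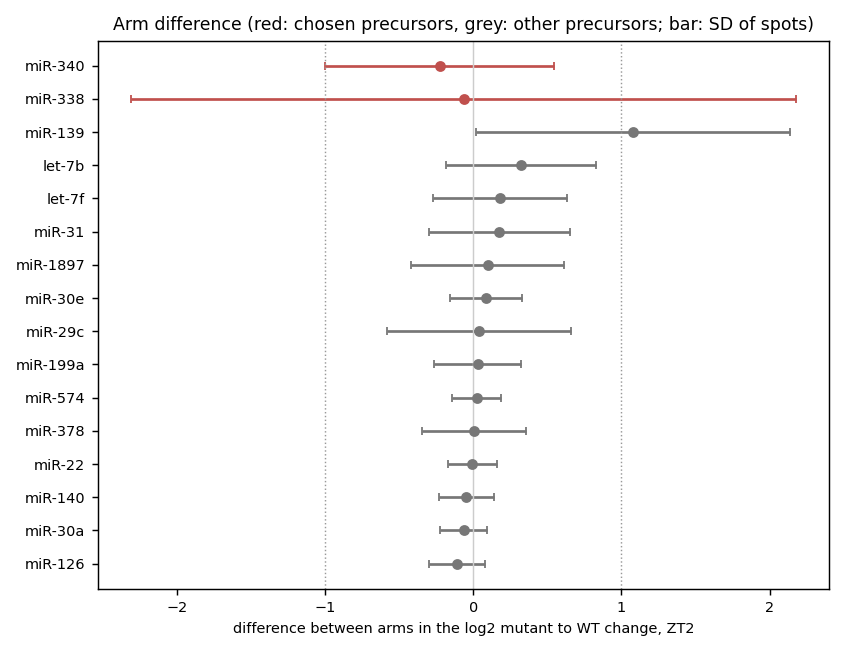
Difference between the arms of a precursor in the log2 mutant to WT change at ZT2 (5p minus 3p, or unstarred minus starred), with the SD of spots. Over all probes, the bars of both red precursors, miR-338 and miR-340, cross 0, as do those of all 14 grey precursors except miR-139.

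The choice of members used the difference between genotypes and not that between times, but the time ratios come from the same 4 arrays. The 5 listed miRNAs were undetected in WT at ZT14, so no rise could appear for them in WT. In WT 2 members gave a ratio, both partner arms, and in the mutant 6 did. In WT, 0 of 9 members were 2-fold higher at ZT14 than at ZT2, against 1.03% of 194 miRNAs, and 0 were 2-fold lower, against 6.7%. In the mutant, 0 were higher, against 0% of 163, and 0 lower, against 13.5%. Values against a floor are counted in these shares too. Over both genotypes (2 arrays per time point, all 123 miRNAs, limma with Benjamini-Hochberg adjustment), ZT14 minus ZT2 was -0.22 ± 0.14 (SE) for miR-338-3p, adjusted p = 0.525. It was -0.34 ± 0.12 (SE) for miR-340-5p, adjusted p = 0.494 by limma. Both were lower at ZT14 in each genotype, with log2 changes in WT and mutant of -0.35 and -0.09 for miR-338-3p and of -0.31 and -0.38 for miR-340-5p. limma called 0% of the 123 miRNAs, with 12 at an unadjusted p under 0.05, and the median change of all 123 was -0.15. These directions depended on the scaling. With normexp the WT changes of miR-338-3p and miR-340-5p turned to 0.33 and 0.31, and with quantile normalization the mutant changes turned to 0.42 and 0.12.

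The miRNAs with the scaled profile over the 4 arrays most like miR-338-3p were miR-193, miR-350 and miR-31, with root mean square differences of 0.03, 0.05 and 0.05 on the log2 scale beside a median of 0.16 over 122 miRNAs. Those most like miR-340-5p were miR-29b, miR-93 and miR-335-5p at 0.02, 0.05 and 0.05, beside a median of 0.17.

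Of the miRNAs encoded with miR-532 in Clcn5, 7 of 8 listed were on the array and 4 were detected nowhere. miR-362-3p gave log2 ratios of mutant to WT of -0.34 ± 0.25 at ZT2 and -0.14 ± 0.45 at ZT14, and miR-500 of -0.31 ± 0.32 and -0.33 ± 0.45. miR-188-5p was detected in WT at ZT2 alone, with 11.7 units. Its log2 value of -1.42 was taken against the mutant's own 4.10 units. That signal was under the negative control mean there, 5.65 units, so no fold is given. miR-421, encoded beside miR-374, was detected on no array.

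The deposited log2 table, in which the 5 listed miRNAs differ 2-fold at both times, was set against the scanner output. Each of its 611 mouse values equalled, to within 0.001, the log2 of its detected probes' signals added up, with 0.1 entered where no probe was detected, plus 1 number per array. That number was -4.18 for WT and -3.27 for the mutant at ZT2, and 3.32 for both arrays at ZT14. So each ZT2 ratio in the table holds an added 0.916, and the ZT14 arrays were not scaled against each other. At ZT2 the table gave log2 ratios of 1.22 for miR-338-5p, 1.27 for miR-340-3p, 1.03 for miR-423-5p and 1.01 for miR-374. From the probe sums alone the same ratios were 0.31, 0.36, 0.11 and 0.09. The partner arms miR-338-3p and miR-340-5p had 0.61 and 0.89 in the table and -0.30 and -0.02 from the probe sums, and the undetected miR-423-3p and miR-532-3p had 0.916. Just inside the threshold of 1 was miR-374, and just outside it were those undetected arms and miR-340-5p.

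The other 6 of the 10 table differences of listed miRNAs set a detected sum against 0.1. At ZT14 the mutant had sums of 6.07 units for miR-338-5p, 8.31 for miR-340-3p, 14.8 for miR-423-5p, 11.9 for miR-532-5p and 13.2 for miR-374, and WT had 0.1 for each. At ZT2 miR-532-5p had 13.5 units in WT and 0.1 in the mutant. The table's folds for these 6 ran from 60.7 to 148. The table as it stands put 4 members at least 2-fold higher at ZT2, against 13.9% of 194 miRNAs, and 1 lower, against 17.5%. At ZT14 it put 5 higher, against 21% of 157, and 0 lower, against 15.3%. These shares chose the members, and nothing is read from them.

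**Figure D4:**
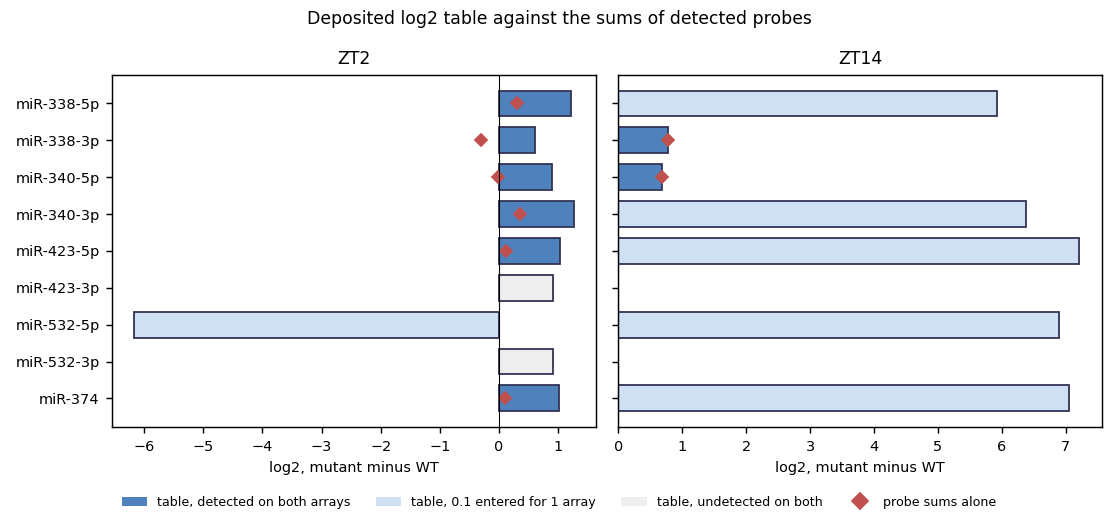
Log2 difference, mutant minus WT, in the deposited table (bars) and from the sums of detected probes (red diamonds, where both arrays detected the miRNA). At ZT2 each diamond lies 0.916 left of its bar end, and at ZT14 the 5 pale bars have 0.1 entered for WT.

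The scanner's own total per miRNA did not hold each arm alone. In WT at ZT2 the total of miR-338-5p was 124 units, of which 5.35 came from its own detected probe, and the remaining 119 equalled the total of miR-338-3p to within 0.01 units. The total of miR-340-3p, 130.2 units, held 5.76 of its own, and its remainder equalled the total of miR-338-5p. The same arithmetic held for both miRNAs on both mutant arrays. The total of miR-340-5p equalled the sum of its own probes on all 4 arrays.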

How the data were processed

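Scanner output of 4 arrays on 1 slide, made with Agilent Feature Extraction 10.7.1.1, was used. The deposited values are linear intensities per spot after background subtraction, with outlier flags, totals per probe and detection calls. A log2 table, 1 value per miRNA and array, was also deposited, and its normalization was worked out from the files. Spots without outlier flags were averaged per probe, then per miRNA, and divided by the array's 75th percentile, taken from the 123 mouse miRNAs that every array detected. The SD of spots was carried to the log2 scale by its ratio to the mean. Where 1 array detected a miRNA, the other array was set to the floor given above, and the result is called a bound. It was kept only where the detected array lay above the floor. Where the floor was the miRNA's own signal, the bound is the ratio of the 2 signals and not a least fold. Mutant and WT were not tested. Time point was tested with limma 3.58.1 in R 4.3.3, with genotype as a term, which left 1 residual degree of freedom, and the fit was tested on simulated data. Python 3.11.15, numpy 2.4.6, pandas 2.3.3 and matplotlib 3.10.9 were used otherwise. The number of arrays limits the precision. The miRNAs named are the members, their cluster neighbours, the 3 nearest profiles, background precursors with the 3 largest and 3 smallest arm differences, and miR-122. Marker lists were also made for biliary epithelium, endothelium, stellate cells and brain. The members and lists were chosen with earlier results of these data known. The brightest probe, the deposited table as it stands and the 14 background precursors at ZT2, in place of 8, were added as alternatives after seeing the data. qRT-PCR and target predictions are not analysed here.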

Additional observations from a re-analysis of the deposited data

Results flagged for a closer look

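Under the chosen scaling, some members had ratios of opposite sign under the same contrast. With 1 array per condition no difference was tested. A value against the floor was kept only where the detected array lay above it, so its sign was fixed by detection. For mmu-miR-338-3p the log2 ratio of mutant to WT was -0.15 ± 0.35 at ZT2 and 0.11 ± 0.55 at ZT14 (SD of spots), a difference of 0.26. The signs were alike with the percentile over all mouse miRNAs (0.16 and 0.62) and with quantile normalization (0.28 and 0.77). For mmu-miR-532-5p the values against the floor were -0.43 at ZT2 and 0.25 at ZT14, a difference of 0.68, and the ZT14 value was lost with the negative control mean as the floor and on the brightest probe. The same 4 signals give -0.33 in WT and 0.35 in the mutant for ZT14 against ZT2, so this is the same difference of 0.68 and no second result, and the WT value was lost in the same ways. For mmu-miR-340-3p the log2 ratio of ZT14 to ZT2 was -0.29 in WT, against the floor, and 0.14 ± 0.78 for the mutant, a difference of 0.42, and the WT value was lost with that other floor and on the brightest probe.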

How the results depend on the processing

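No paired analysis was possible because the labels give no replicate numbers and each condition had 1 array. The count of members at least 2-fold different between mutant and WT, 0 at both times, became at ZT2 2 with the scanner's total per miRNA, 1 with the sum over detected probes, 4 with the deposited table with bounds and 5 with that table as it stands. At ZT14 it became 1 without scaling, with quantile normalization, with the percentile of all mouse miRNAs and at a 1.5-fold threshold, 2 with spike-in scaling, 5 with the scanner's total, 3 with the deposited table with bounds and 5 as it stands. The counts of 1 at ZT14 were miR-340-3p, and spike-in scaling added miR-532-5p. Each was a value against a WT array that did not detect the miRNA, so these counts give no fold. Under the other alternatives it stayed 0. The arm difference was under 2-fold for both precursors in every alternative run, and at ZT14 no precursor gave a value. The limma count for time point, 0, became 5 without scaling, 3 with spike-in scaling, 3 with normexp and 123 with the deposited table, whose number per array differs between the times. With 1 array left out the genotype term was dropped too, so these fits compare with time point alone on 4 arrays, which called 0. They ran from 0 to 13, with 13 without WT at ZT14 and 1 without the mutant at ZT14, where the lone array is assumed to vary like the others. Other causes were not tested. Of 269 single-member ratios recomputed, 61 moved by more than the spot SD and 48 changed sign. The moved ratios include those of ZT14 to ZT2 in the deposited table, whose number per array differs between the times. What moved the others was not tested.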

Other observations

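Of the other marker lists, the 3 hepatocyte miRNAs and the 2 endothelial miRNAs were detected on every array. Biliary epithelium miRNAs were detected for 4, 2, 2 and 3 of 5 (WT and mutant at ZT2, then WT and mutant at ZT14), with summed signals of 127, 61.5, 35.1 and 83.6 units. Stellate cell miRNAs were detected for 3, 3, 2 and 3 of 3, and the 3 brain miRNAs on no array.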
